A study of Mus musculus with 36 samples.

Results

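The comparison described here is that of EPS-stimulated with unstimulated C2C12 myotubes at 0 min, the harvest made as soon as the electrical pulses had ended. It takes in 6 of the 36 samples of the series, chosen by treatment and time point: 3 control and 3 EPS-stimulated samples. C2C12 is a mouse muscle cell line whose myoblasts fuse into contractile myotubes when serum is lowered, and EPS (electrical pulse stimulation) makes these myotubes contract. The other 30 samples are control and EPS-stimulated myotubes at 30, 60, 120, 180, and 240 min. Both groups at 0 min were the same line, differentiated in the same medium, and they differed by the pulses alone as far as the labels state. The study describes its replicates as 3 independent experiments. Everything rests on 1 cell line, and the genes measured include no marker of myotubes, so the labelled cell type was not checked here.

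Cytosine methylation at CpG sites near a promoter is a repressive mark in most genes, and TET enzymes can oxidise it to hydroxymethylcytosine on the way to its removal. Bisulfite sequencing reads methylated and hydroxymethylated cytosines alike, so the percent values at 0 min do not separate these forms. Cytosines left unconverted by bisulfite would be counted with them, and no conversion rate was estimated here. The amplicons cover 3 genes that respond to muscle contraction. Nr4a3 encodes an orphan nuclear receptor and behaves as an immediate early gene, Ccnd1 encodes cyclin D1, which drives entry into the cell cycle, and Ppard encodes a nuclear receptor that promotes fatty acid oxidation in muscle.

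The deposited table lists 171 cytosines, with methylation in percent and no read counts, and their sequencing depth is therefore unknown. Sites of a gene no more than 100 bp apart were taken as 1 block, which gave 7 blocks. In 5 of them every sample at 0 min had a value at every site, 117 sites in all. All positions are on GRCm38 (mm10), and distances are those the table lists, genome coordinate minus transcription start site (TSS). Ccnd1 lies on the minus strand, and a positive listed distance is therefore upstream of it. The sequences of the measured blocks, or of the stretch that the results turn on, follow on the strand of the gene, with the listed cytosines in capitals.

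The distal Nr4a3 block spans 277 bp at chr4:48042827-48043103 on the plus strand, −2326 to −2050 bp from the TSS, with 38 listed cytosines (33 CpG) and no annotated gene.
Nr4a3 distal: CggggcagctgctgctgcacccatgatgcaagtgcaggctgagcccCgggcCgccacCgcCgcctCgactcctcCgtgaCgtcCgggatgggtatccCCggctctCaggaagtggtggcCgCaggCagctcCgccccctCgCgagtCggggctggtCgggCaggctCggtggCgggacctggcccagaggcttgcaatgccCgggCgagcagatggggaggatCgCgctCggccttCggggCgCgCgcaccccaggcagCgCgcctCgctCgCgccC

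The proximal Nr4a3 block runs from −260 to −45 bp, and the stretch with a value in all 6 samples, at chr4:48045031-48045108 on the plus strand, is shown because all its values were 0.
Nr4a3 proximal: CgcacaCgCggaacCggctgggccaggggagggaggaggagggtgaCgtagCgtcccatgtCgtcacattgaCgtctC

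The near Ccnd1 block covers 178 bp at chr7:144940258-144940435, listed at 389 to 566 bp, upstream of the gene, with 16 cytosines (12 CpG). It is written on the minus strand, as is the far block.
Ccnd1 near: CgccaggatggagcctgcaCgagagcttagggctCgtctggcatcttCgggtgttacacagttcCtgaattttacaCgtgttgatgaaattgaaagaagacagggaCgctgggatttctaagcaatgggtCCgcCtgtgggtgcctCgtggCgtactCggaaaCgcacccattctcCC

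The far Ccnd1 block is listed at 1260 to 1643 bp and has 43 cytosines (25 CpG). Its first 151 bp in coordinates, chr7:144941129-144941279, carried most of the methylation of the block and are shown.
Ccnd1 far: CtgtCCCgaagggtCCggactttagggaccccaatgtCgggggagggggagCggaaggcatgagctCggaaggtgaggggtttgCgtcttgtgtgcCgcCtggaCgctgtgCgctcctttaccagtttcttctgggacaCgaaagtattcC

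The upstream Ppard block, chr17:28232454-28232627 on the plus strand, lies −300 to −127 bp from the TSS and lists 12 cytosines, all CpG.
Ppard upstream: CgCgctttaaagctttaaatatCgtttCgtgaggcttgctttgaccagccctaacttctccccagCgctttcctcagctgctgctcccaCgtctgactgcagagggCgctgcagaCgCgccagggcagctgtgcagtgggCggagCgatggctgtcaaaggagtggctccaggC

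The intronic Ppard block, chr17:28233460-28233606 on the plus strand, lies 706 to 852 bp downstream of the TSS in an intron and lists 8 cytosines, of which 5 are CpG.
Ppard intronic: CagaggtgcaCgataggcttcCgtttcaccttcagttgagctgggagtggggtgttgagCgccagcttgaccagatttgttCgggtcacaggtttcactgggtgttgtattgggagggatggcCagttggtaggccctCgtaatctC

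The remaining Ppard block, −1 to 252 bp, overlaps an annotated exon in its untranslated part and lists 31 cytosines. All 31 lie outside the bisulfite amplicons of the study. Only EPS replicate 1 had values there at 0 min, and all 31 were 0, so no comparison was made. The number of cytosines with a value was 171 in EPS replicate 1, 126 in control replicate 2, and 140 in each of the other 4 samples.

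CpG density differed between the 5 blocks compared, from 11.6 CpG per 100 bp in the distal Nr4a3 block to 3.40 in the intronic Ppard block. The distal Nr4a3 block had the lowest mean at 0 min and the intronic Ppard block the highest, while the other 3 had 6.18 to 6.32 CpG per 100 bp. In the intronic Ppard block the lowest value of any site and sample was 2.86%.

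A pair of properties of the values bear on all comparisons. Neighbouring sites moved together across the 6 samples, with a median correlation of their deviations from the group means between 0.956 and 0.998 in the 5 blocks. At the 28 non-CpG sites that lie between listed CpG sites of their block, all 168 values were within 10% of the straight line between those CpG sites. The sites of a block were therefore not counted as replicates, and 1 mean per sample and block was compared. With 3 samples against 3, the exact permutation test cannot give a p under 0.1.

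No block separated EPS-stimulated from control samples at 0 min. The ratio of the EPS to the control mean lay between 0.781 and 1.06, the groups overlapped in all 5 blocks (0% of blocks did not), and the smallest exact permutation p was 0.2 (0.7 after Benjamini-Hochberg adjustment over the 5 blocks). Block means were lower after EPS in the distal Nr4a3, near Ccnd1, and upstream Ppard blocks and higher in the far Ccnd1 and intronic Ppard blocks. Of the 117 sites, 72 (61.5%) had a higher mean and 45 (38.5%) a lower mean after EPS.

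**Figure D1:**
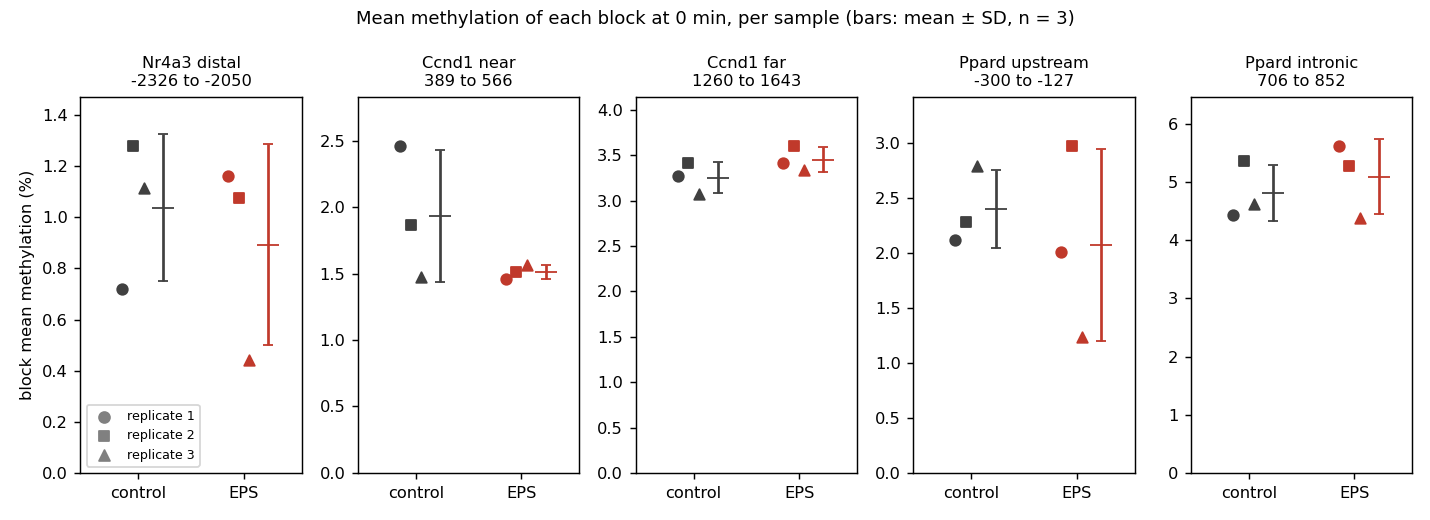
Mean methylation in percent of the 5 blocks at 0 min on axes that start at 0, with 1 point per sample, the marker giving the replicate number, and mean ± SD beside the points (n = 3). Control and EPS points overlap in every panel, and the EPS points of the near Ccnd1 block lie closest together, between 1.46% and 1.56%.

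In the distal Nr4a3 block, methylation was 0.718%, 1.28%, and 1.12% in control replicates 1 to 3 and 1.16%, 1.07%, and 0.442% in EPS replicates 1 to 3. EPS replicate 3 was below all controls, and EPS replicates 1 and 2 were inside the control range. Control cells averaged 1.04% ± 0.289 and EPS-stimulated cells 0.892% ± 0.393 (SD, n = 3 each). The difference, −0.145 percentage points, was smaller than the spread in either group (two-sided exact permutation test, p = 0.6). Without EPS replicate 3 the difference was 0.0798 percentage points in the opposite direction.

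That block mean was set by its last 6 sites, from −2067 to −2050 bp, which lie beyond the end of the bisulfite amplicon at −2128 bp and made up 69.3% of the summed methylation. The highest site of the block, at −2067 bp, had 3.67%, 7.73%, and 7.03% in the controls and 7.03%, 5.84%, and 1.62% after EPS. EPS replicate 3 was lowest and control replicate 1 second lowest, so that each group held low and high samples. The difference at this site, −1.32 percentage points, was the largest of the block (limma, adjusted p = 0.996). Without EPS replicate 3 it turned to 0.289 percentage points, and over the 6 sites the difference went from −0.972 to 0.339. Without control replicate 1 these were −2.55 and −1.92. At all 6 of these sites EPS replicate 1 and control replicate 3 had identical deposited values. No other pair among the 630 pairs of the 36 samples shared a value above 0, and these 2 samples differed at every other site with a value above 0. At the last site, −2050 bp, the control mean was 2.67% ± 0.922 and the EPS mean 2.18% ± 1.43 (SD, n = 3 each).

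Between the primers of the distal Nr4a3 amplicon, 22 sites from −2280 to −2154 bp, the direction was the other way. The controls had 0.281%, 0.313%, and 0.287%, and the EPS-stimulated samples 0.300%, 0.354%, and 0.308%. EPS replicate 2 was above all controls, while EPS replicates 1 and 3 were inside the control range. The EPS mean was 0.0269 percentage points higher, a ratio of 1.09, and the site means were higher at 22 of 22 sites (exact permutation test, p = 0.3). Without EPS replicate 2 the difference was 0.0104 percentage points, and with any other sample left out it was between 0.0208 and 0.0373. In EPS replicate 2 methylation was 0.342% at −2280 bp and 0.384% at −2154 bp, while in control replicate 2 it was 0.353% at −2280 bp and 0.285% at −2187 bp. The CHG site at −2229 bp and the CpG site at −2228 bp both averaged 0.292% in control and 0.314% in EPS-stimulated cells. A share of unconverted cytosines in these low values was not tested.

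**Figure D2:**
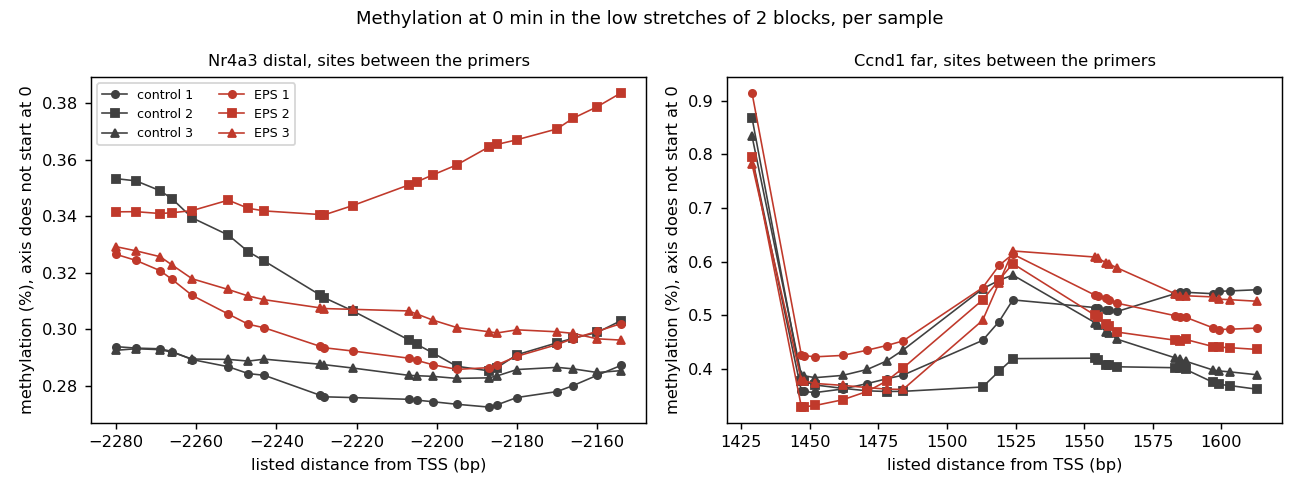
Methylation in percent at each cytosine between the primers of the distal Nr4a3 and far Ccnd1 amplicons at 0 min, against the listed distance from the TSS in bp, 1 line per sample (control grey, EPS red, the marker giving the replicate). The axes do not start at 0, and in the Nr4a3 panel EPS replicate 2 reaches 0.384% at −2154 bp, where the other 5 samples lie between 0.285% and 0.303%.

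Within this amplicon the groups did not overlap at the neighbouring CpG sites −2187 and −2185 bp. At −2187 bp the controls had 0.272%, 0.285%, and 0.283%, and the EPS-stimulated samples 0.286%, 0.365%, and 0.299%. The lowest EPS sample was above the highest control by 0.00113 percentage points, and the groups differed by a ratio of 1.13 (limma log2 difference 0.17, standard error 0.13, adjusted p = 0.996). The difference at −2187 bp went from 0.0365 to 0.0126 percentage points once EPS replicate 2 was left out. Both sites are 2 bp apart and had nearly the same value in each sample, so they are not separate observations. The site of the block with the smallest limma p was −2207 bp, with 0.285% ± 0.0106 in control and 0.316% ± 0.0317 in EPS-stimulated cells (SD, n = 3 each). Its limma adjusted p was 0.996, and 0.160 before adjustment. The lowest site, −2195 bp, had a mean of 0.298% over the 6 samples, and the first site, −2326 bp, had 0.325% ± 0.0419 in control and 0.356% ± 0.0126 after EPS.

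The stretch from −2201 to −2081 bp, which the study picked out in these samples and also assayed for hydroxymethylation, had means at 0 min that were nearly equal but moved with single samples. Control samples had 0.351%, 0.480%, and 0.316%, and EPS-stimulated samples 0.395%, 0.442%, and 0.309%. The difference was −0.000219 percentage points, a ratio of 0.999 (exact permutation test, p = 1), with higher means at 11 sites and lower means at 7. The 9 sites inside the amplicon were all higher after EPS, while of the 9 outside it, from −2125 to −2081 bp, 7 were lower and 2 higher. The difference was 0.0486 percentage points without control replicate 2, 0.0363 without EPS replicate 3, and between −0.0333 and −0.00679 with any other sample left out. The crossing lay between −2121 and −2103 bp. In the fit over all 36 samples, the 95% interval of the EPS to control odds ratio of this stretch was 0.646 to 1.56. At its last site, −2081 bp, control replicate 2 stood at 1.90% and the other 5 samples between 0.564% and 1.12%.

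The proximal Nr4a3 stretch from −122 to −45 bp had 0% in all 6 samples at all 9 cytosines, and the 14 listed sites upstream of it had 0% in the 5 samples with a value. Because the depth is unknown, no upper limit can be given for these zeros. The letters TGACG, the core of the cyclic AMP response element bound by CREB, were searched on both strands and occur 3 times in these 78 bp, with their CpG cytosines at −76, −61, and −50 bp. Of 32851 RefSeq promoter sequences (GRCm38.p6), 3.99% hold the letters in their first 78 bases. In the distal Nr4a3 block the letters occur once, with the CpG cytosine at −2247 bp, where methylation was 0.300% ± 0.0238 in control and 0.319% ± 0.0214 in EPS-stimulated cells (SD, n = 3 each). They are found in 19.8% of the promoter sequences over 277 bases. Both shares count sequences with at least 1 match, and the bases searched were not matched for distance from the TSS. The letters are absent from the 4 Ccnd1 and Ppard sequences shown.

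In the near Ccnd1 block, methylation was 2.46%, 1.87%, and 1.48% in control replicates 1 to 3 and 1.46%, 1.51%, and 1.56% in EPS replicates 1 to 3. All 3 EPS samples were below the control mean, but EPS replicates 2 and 3 were above control replicate 3. Control cells averaged 1.94% ± 0.496 and EPS-stimulated cells 1.51% ± 0.0506 (SD, n = 3 each). EPS lay lower by 0.423 percentage points, a ratio of 0.781 (exact permutation test, p = 0.3). Site means were lower after EPS at all 16 sites. Control replicate 1 was the high sample, and its removal left −0.160 percentage points.

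The close agreement of the EPS samples in this block mean was not seen site by site. From 389 to 460 bp the EPS samples had 1.76%, 1.38%, and 1.13%, and from 490 to 566 bp they had 0.968%, 1.74%, and 2.27%, the reverse order. The controls had 2.40%, 1.59%, and 1.50% in the first stretch and 2.56%, 2.34%, and 1.45% in the second, in the same order both times. The profile had its minimum at 460 or 490 bp in every sample, and the lowest mean level was at 490 bp, 0.965% ± 0.0696 in control and 0.725% ± 0.281 in EPS-stimulated cells (SD, n = 3 each). EPS replicate 1, at 0.408%, was the low sample there. At the first site, 389 bp, the means were 2.31% ± 0.645 and 1.84% ± 0.475. The last site, 566 bp, had the highest level, the largest difference, and the smallest limma p of the block, with 4.71%, 3.90%, and 2.27% in the controls and 1.67%, 2.72%, and 4.03% after EPS. On the log2 scale this site differed by −0.41 with a standard error of 0.39 (limma, adjusted p = 0.996). The difference of −0.822 percentage points lay between −1.50 without control replicate 3 and −0.254 without EPS replicate 1.

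**Figure D3:**
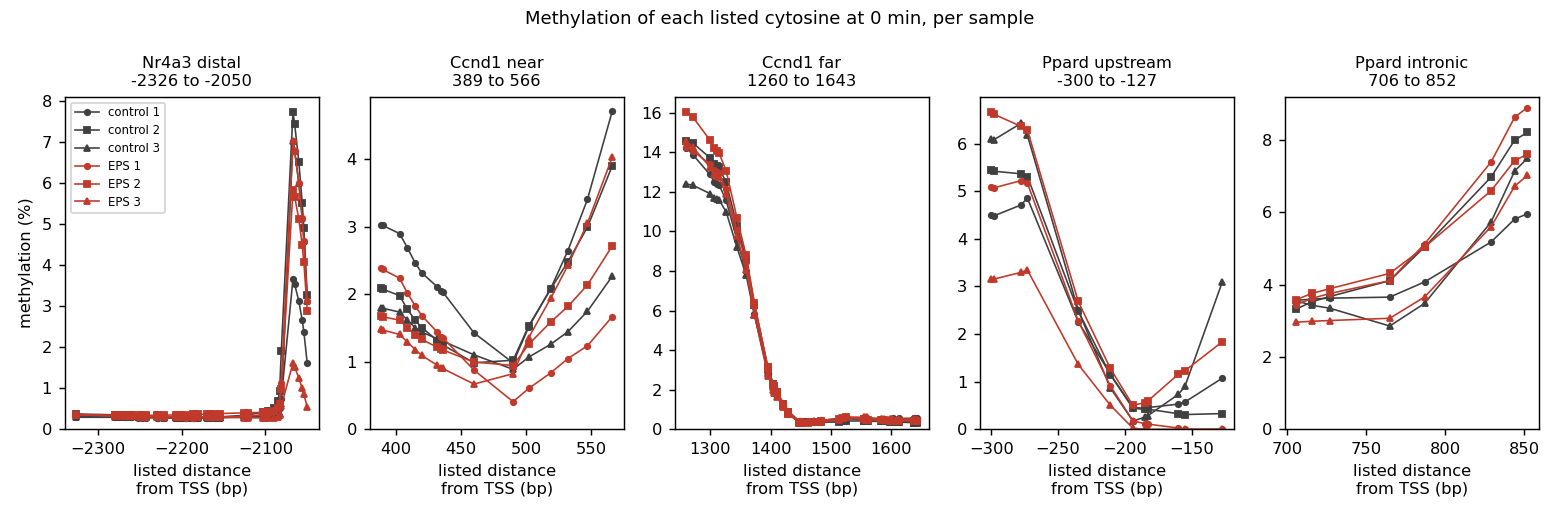
Methylation in percent at every listed cytosine of the 5 blocks at 0 min, on axes that start at 0, against the listed distance from the TSS in bp, 1 line per sample (control grey, EPS red, the marker giving the replicate). In the far Ccnd1 block all 6 profiles go from 12.4% or more at 1260 bp to under 1% from 1429 bp on. At the right end of the upstream Ppard block they part, with control replicate 3 at 3.09% and EPS replicates 1 and 3 at 0.

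In the far Ccnd1 block, the controls had 3.27%, 3.41%, and 3.07%, and the EPS-stimulated samples 3.42%, 3.60%, and 3.33%. EPS replicates 1 and 2 were above all controls, replicate 1 by a narrow margin, and EPS replicate 3 was inside the control range. Control cells averaged 3.25% ± 0.172 and EPS-stimulated cells 3.45% ± 0.139 (SD, n = 3 each). EPS lay higher by 0.201 percentage points, a ratio of 1.06 (exact permutation test, p = 0.2). This was the largest difference of the 5 blocks in relation to the spread between replicates, 1.29 times the pooled SD. Without control replicate 3, the lowest sample, it was 0.110 percentage points. Means were higher after EPS at 41 of 43 sites, and the exceptions were the adjacent sites 1421 and 1429 bp.

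The 13 sites from 1260 to 1404 bp carried 86.6% of the summed methylation of the far Ccnd1 block and lie outside the bisulfite amplicon, which starts at 1405 bp. At 1260 bp, the first and highest site, the controls had 14.2%, 14.6%, and 12.4%, and the EPS-stimulated samples 14.2%, 16.0%, and 14.6%. Control replicate 3 was low and EPS replicate 2 high, and the other 4 samples lay between 14.2% and 14.6%. The difference of 1.20 percentage points had the smallest limma p of the block, 0.206 (adjusted p = 0.996), and was 0.534 without control replicate 3 and 0.662 without EPS replicate 2. At the 23 sites between the primers, the controls had 0.487%, 0.407%, and 0.457% and the EPS-stimulated samples 0.511%, 0.457%, and 0.512%, a ratio of 1.10 (exact permutation test, p = 0.3). Here control replicate 2 was the low sample, and without it the difference went from 0.0429 to 0.0211 percentage points.

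At the CHG site at 1524 bp of Ccnd1 the groups did not overlap. The controls had 0.529%, 0.420%, and 0.575%, and the EPS-stimulated samples 0.614%, 0.597%, and 0.620%, a ratio of 1.20 (limma log2 difference 0.28, standard error 0.34, adjusted p = 0.996). Without control replicate 2 the difference there went from 0.102 to 0.0582 percentage points. It was the only site of the block without overlap, although its neighbours at 1519 and 1554 bp also had higher EPS means. The lowest site of the block, at 1452 bp, had 0.370% ± 0.0139 in control and 0.376% ± 0.0454 after EPS, and the last, at 1643 bp, 0.415% ± 0.123 and 0.473% ± 0.0523 (SD, n = 3 each).

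The upstream Ppard block had 2.12%, 2.28%, and 2.80% in the controls and 2.01%, 2.98%, and 1.24% in the EPS-stimulated samples. No EPS sample was inside the control range, with replicate 2 above it and replicates 1 and 3 below it. Control cells averaged 2.40% ± 0.353 and EPS-stimulated cells 2.08% ± 0.873 (SD, n = 3 each). EPS lay lower by 0.326 percentage points, a ratio of 0.864 (exact permutation test, p = 0.6). Means were lower at all 12 sites, and without EPS replicate 3 the block difference was 0.0938 percentage points, in the opposite direction.

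Most of the methylation of this Ppard block, 77.0%, was at its 4 upstream sites from −300 to −273 bp, where the controls had 4.63%, 5.38%, and 6.19% and the EPS-stimulated samples 5.13%, 6.48%, and 3.24%. The highest site, −278 bp, had 5.50% ± 0.864 in control and 4.96% ± 1.55 after EPS, and the first, −300 bp, 5.34% ± 0.805 and 4.97% ± 1.75 (SD, n = 3 each). From −194 to −127 bp the controls had 0.588%, 0.375%, and 0.906% and the EPS-stimulated samples 0.0718%, 0.979%, and 0.00404%. EPS replicates 1 and 3 were lowest and EPS replicate 2 highest of the 6. EPS replicate 1 was listed at 0 at 2 of the 12 sites and EPS replicate 3 at 5, and no control was at 0. At the lowest site, −194 bp, the difference was −0.122 percentage points, and −0.0170 without EPS replicate 3.

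The site with the smallest limma p of all 117 was the last of the upstream Ppard block, at −127 bp, 1 bp beyond the amplicon. The controls had 1.07%, 0.330%, and 3.09%, EPS replicate 2 had 1.84%, and EPS replicates 1 and 3 were listed at 0. The difference was −0.887 percentage points, and the log2 difference, with the methylated fraction held at 0.001 or above, was −1.98 (standard error 1.28, limma adjusted p = 0.996). Before adjustment it was 0.135. Leaving out control replicate 3 brought the difference to −0.0893 percentage points, and leaving out EPS replicate 2 to −1.50.

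The intronic Ppard block had 4.44%, 5.36%, and 4.63% in the controls and 5.63%, 5.28%, and 4.38% after EPS. EPS replicate 1 was the highest and EPS replicate 3 the lowest of the 6 samples. Control cells averaged 4.81% ± 0.487 and EPS-stimulated cells 5.10% ± 0.642 (SD, n = 3 each). EPS lay higher by 0.286 percentage points, a ratio of 1.06 (exact permutation test, p = 0.7). Without EPS replicate 1 the difference was 0.0211 percentage points. The first and lowest site, at 706 bp, had 3.49% ± 0.134 in control and 3.33% ± 0.328 after EPS, and it and the site at 716 bp were the exceptions to a higher EPS mean at the other 6. The largest difference, 0.622 percentage points, was at the last and highest site, 852 bp, with 5.96%, 8.21%, and 7.50% in the controls and 8.90%, 7.61%, and 7.02% after EPS. It went to 0.0936 percentage points when EPS replicate 1 was left out and to −0.00934 when control replicate 1 was. The smallest limma p of the block, 0.420, was at 829 bp (adjusted p = 0.996).

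Over single sites, limma called 0 of 117 (0%) at an adjusted p under 0.05, and 0 of 117 (0%) at an unadjusted p under 0.05. The groups did not overlap at 3 of the 126 sites with a value in all 6 samples (2.38%), 2 in the distal Nr4a3 and 1 in the far Ccnd1 block, all with EPS higher (2.38%, against 0% with EPS lower). Over the 117 sites alone the share at 0 min was 2.56%, and at the later time points the share of these sites without overlap was 9.40% at 30 min, 5.13% at 60 and 120 min, 0% at 180 min, and 1.71% at 240 min.

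The range of differences compatible with the data was read from a limma fit on the block means of all 36 samples, in which the 12 groups share 1 estimate of the spread. It gives the ratio of the odds of methylation, which at these levels is close to the ratio of the percents. The 95% interval was 0.923 to 1.23 for the far Ccnd1 block and 0.859 to 1.31 for the intronic Ppard block. It was wider for the near Ccnd1 block, 0.435 to 1.45, and for the upstream Ppard block, 0.463 to 1.43. For the distal Nr4a3 block it was 0.121 to 5.45 with all listed sites. That interval carries the spread of the other time points, since the SD of this block was 6.42 in control and 5.22 in EPS-stimulated samples at 30 min, against 0.289 and 0.393 at 0 min. With the sites between the primers only, the interval narrowed to 0.952 to 1.25 for distal Nr4a3 and widened to 0.790 to 1.52 for far Ccnd1. It was then 0.490 to 1.45 for upstream Ppard and 0.866 to 1.33 for intronic Ppard. The adjusted p over the 5 blocks was between 0.714 and 0.824 with all listed sites and 0.566 between the primers.

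**Figure D4:**
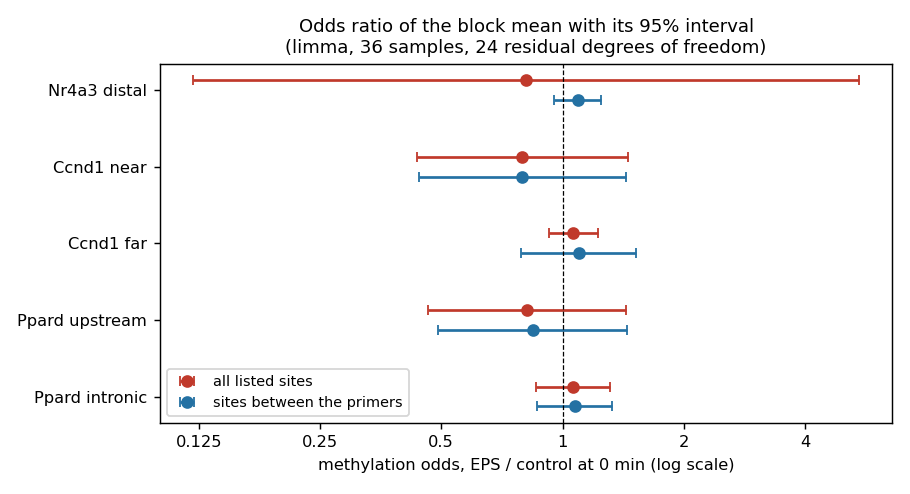
Odds of methylation in EPS-stimulated over control samples at 0 min on a log scale, with the 95% interval from the limma fit on 36 samples, for all listed sites of each block (red) and for the sites between the primers (blue). All intervals include 1, and that of the distal Nr4a3 block narrows from 0.121 to 5.45 with all sites to 0.952 to 1.25 between the primers, while that of the far Ccnd1 block widens from 0.923 to 1.23 to 0.790 to 1.52.

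The differences at 0 min were then set against the mean of the same difference at the 5 later time points, with labels permuted within time points. In the near Ccnd1 block, −0.423 percentage points at 0 min stood against a later mean of −0.0499 and a later range from −0.568 to 0.656 (permutation test with 100000 resamples, p = 0.414). In the far Ccnd1 block, the 0 min difference of 0.201 was the largest of the 6 time points, and the later ones ran from −0.0104 to 0.0652 (permutation test, p = 0.347). For the upstream Ppard block the later differences ran from −1.89 to 1.01 (permutation test, p = 0.687), for the intronic Ppard block from −0.0518 to 0.339 (permutation test, p = 0.820), and for the distal Nr4a3 block from −0.492 to 0.433 (permutation test, p = 0.909). The adjusted p was 0.909 for all 5 blocks.

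Levels at 0 min were within or near those of the later harvests. The control mean was within the range of the 5 later control means in each of the 5 blocks. The EPS mean at 0 min was below all later EPS means in the distal Nr4a3 block, 0.892% against 1.03% to 4.40%, and inside the later range in the other 4 blocks. The spread between controls at 0 min was the smallest of the 6 time points in the distal Nr4a3 and upstream Ppard blocks.

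**Figure D5:**
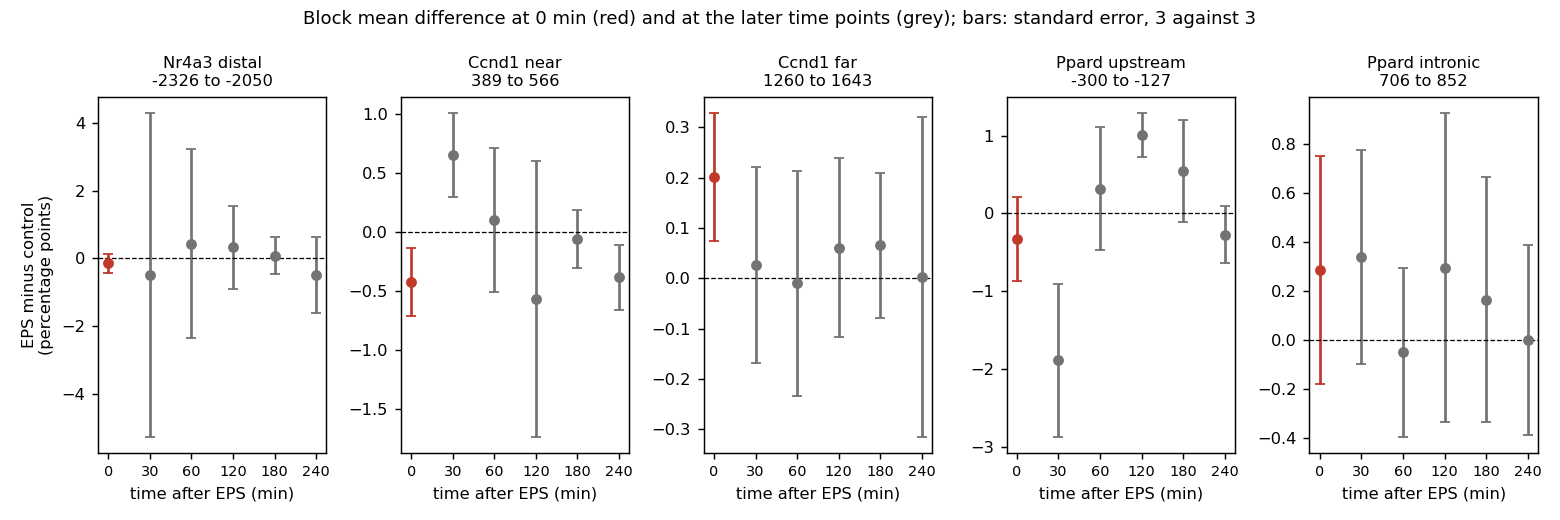
EPS minus control difference of the block mean in percentage points at 0 min (red) and at the later time points (grey), with the standard error from the 3 samples against 3. At 0 min the difference was −0.423 in the near Ccnd1 and 0.201 in the far Ccnd1 block, the latter the largest of its 6 time points.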

How the data were processed

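Bisulfite amplicons of C2C12 myotubes were sequenced for 36 samples, 3 per treatment and time point, and the 6 of 0 min are compared here. Groups and replicate numbers follow the labels. For a control of 0 min the replicate field says 2 where the title says 3, which was kept. The authors amplified 6 bisulfite amplicons in 1 multiplexed PCR, trimmed the reads with Trim Galore 0.3.7 and cutadapt 1.4.2, as the submitters' processing notes give them, and quantified methylation on mm10 with Bismark. They deposited methylation in percent per cytosine and sample, without coverage, so the depth and its precision are unknown. No step that would make neighbouring values vary smoothly is described in the sources used here. A second table holds only p-values of the authors' own comparisons and was not used.

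Sites, cytosine context, and primers were placed on GRCm38.p6 and a GENCODE annotation of that build. Each primer pair had 1 location in and around its gene, the only region searched. The sample was the unit, and block means per sample, over sites with a value in all 6, entered an exact permutation test (two-sided). limma 3.58.1 in R 4.3.3 was fitted with 12 group means (24 residual degrees of freedom) on log2(beta/(1 − beta)), beta held 0.001 from 0 and 1, to the 117 sites with a value in every sample and to the block means. Differences between time points were tested with 100000 resamples. Adjustment was by Benjamini-Hochberg over sites or blocks. Python 3.11.15 with numpy 2.4.6, pandas 2.3.3, and scipy 1.17.1 was used, and the models were tested on simulated data. The simulated sites were independent, so that test does not cover the correlation between neighbouring sites. Named sites are the first, last, highest, and lowest of a block, those with the smallest limma p or the largest difference, and those without overlap. Blocks, tests, and named sites were chosen with earlier results of these data known. Over all sites, same-numbered control and EPS samples did not deviate together, and no block for the replicate number was used. Alternatives were the median over sites, another scale, CpG sites or sites between the primers only, centred samples, all 18 controls, a replicate block, other limits and fits in limma, and each sample left out (for stretches within a block and for named sites, an alternative chosen after seeing the data). A coverage minimum could not be applied. Promoter sequences searched for a motif came from RefSeq.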

Additional observations from a re-analysis of the deposited data

How the results depend on the processing

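No alternative brought a block or a site past the threshold, and 1 library, EPS replicate 3, set the direction of 2 block differences. Of 72 alternative block differences 67 kept their sign, of 57 in the pooled limma fit 51, of 40 in the comparison with later time points 32, and all 12 site fits gave 0 adjusted calls. Some block differences could not change. All 117 sites had a value in all 36 samples, and a replicate block leaves the difference of balanced groups as it is. Near Ccnd1 lies wholly between its primers, and upstream Ppard lists CpG sites only. Leaving out each sample gave block differences in percentage points from −0.305 to 0.0798 (distal Nr4a3), −0.653 to −0.160 (near Ccnd1), 0.110 to 0.281 (far Ccnd1), −0.777 to 0.0938 (upstream Ppard) and 0.0211 to 0.643 (intronic Ppard), in that order −0.55 to 0.15, −0.51 to −0.14, 0.05 to 0.13, −0.61 to 0.04 and 0.01 to 0.19 as log2 odds ratios in the pooled fit, and −0.279 to 0.106, −0.603 to −0.110, 0.0813 to 0.252, −0.720 to 0.151 and −0.128 to 0.494 against later time points. The 2 that reversed without EPS replicate 3 were distal Nr4a3 and upstream Ppard (pooled fit 0.15 and 0.039). The distal Nr4a3 difference also reversed with the median over sites (0.0220, pooled fit 0.10), between the primers (0.0269, pooled fit 0.12) and, in 2 alternatives chosen after seeing the data, without its last 6 sites (0.0095, pooled fit 0.045) and in the pooled fit from −2201 to −2081 bp (0.0068). Against 30 min alone, 0.336 (distal Nr4a3), 1.56 (upstream Ppard) and −0.0529 (intronic Ppard) were reversed, and near Ccnd1 moved to −1.08 (exact permutation p = 0.05, adjusted p = 0.25). With all 18 controls as reference distal Nr4a3 moved to −1.19 (exact permutation p = 0.413), and with the median over sites the pooled fit moved to −0.92 for upstream Ppard (limma adjusted p = 0.632). For far Ccnd1 the median over sites gave 0.0645 percentage points (exact permutation p = 0.3), and 0.19 in the pooled fit (limma adjusted p = 0.644). The cause was not tested. Over all sites, same-numbered deviations correlated at −0.409, −0.260 and −0.393. With 3 samples per group this cannot settle whether replicate numbers pair the samples. All 3 same-numbered differences were nevertheless negative from 389 to 460 bp of Ccnd1 and positive between the primers of distal Nr4a3 and in the far Ccnd1 block (for the last, exact sign-flip p = 0.25, the smallest possible), where the replicate block lowered the pooled standard error from 0.10 to 0.052 (p = 0.0969, limma adjusted p = 0.484). With the block limma gave 5 of 117 sites at an unadjusted p under 0.05, 3 of 117 without EPS replicate 2 and 0 of 117 in the other fits. The smallest limma adjusted p was 0.950 with the block and 0.901 without EPS replicate 2. Neighbouring sites moved together, so these sites are not separate observations. A coverage minimum was not run because the depth is unknown.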

Other observations

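In the upstream Ppard block, samples listed at 0 at 1 or more of the 12 sites were not particular to 0 min. At 0 min they were EPS replicate 1 (2 sites) and EPS replicate 3 (5 sites), and no control. At the 5 later time points, 12 of 15 EPS-stimulated and 7 of 15 control samples had at least 1 such site, and the most in a sample was 5 in either treatment. The difference between treatments in this count was not tested.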
